A study of Homo sapiens with 4 samples.

Results

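CHEK1, CHEK2 and RAD52 were followed in U2OS cells, a human osteosarcoma line, after siRNA directed at BRPF3, a scaffold protein of histone acetyltransferase complexes. The members were taken by gene symbol, with every probe set that the platform annotation gives to one of the 3 genes. This yielded 4 probe sets (1 for CHEK1, 2 for CHEK2 and 1 for RAD52) of 16098 named probe sets, which stand for 14884 genes, and of 53617 probe sets in all. The 3 genes had been chosen by their differences in this same contrast, in an earlier look at checkpoint and repair genes on these arrays. Their differences are therefore given as a description, without a test.

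One group held 2 arrays of cells transfected with BRPF3 siRNA, and the other 2 arrays of cells transfected with a scrambled control siRNA, each at 50 nM for 48 hours with a lipid reagent. All 4 arrays are of the same line, grown alike, and the labels call the arrays of a group biological replicates without saying how separate the cultures were, so any p-value reflects the spread among these 4 arrays, which may be technical. Values are log2 signals made with RMA, which corrects background, normalizes between arrays and summarises each probe set.

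CHEK1 and CHEK2 encode serine/threonine kinases that relay DNA damage signals. CHEK1 is switched on mainly by ATR at stalled replication forks, and CHEK2 mainly by ATM at double-strand breaks. Both phosphorylate CDC25 phosphatases and thereby slow entry into S phase and mitosis. RAD52 anneals complementary single strands bound by RPA, which serves single-strand annealing and break-induced replication. U2OS cells keep their telomeres by recombination rather than by telomerase, a state known as ALT, and RAD52 is known to take part in telomere synthesis in such cells.

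The promoter windows below come from RefSeq (GRCh38.p14) and are shown because CHEK1 and CHEK2 moved together on the arrays while RAD52 moved the other way. Each runs from 250 bases before to 50 bases after an annotated start, 5′ to 3′ on the strand of the gene. Capitals mark CCAAT boxes, which bind the factor NF-Y and are read here on the opposite strand. All 3 members matched, with 6 windows between them (3 for CHEK1, 1 for CHEK2 and 2 for RAD52). The CHEK1 window lies at chr11:125626106-125626405 on the plus strand, the CHEK2 window at chr22:28741771-28742070 on the minus strand and the RAD52 window at chr12:949645-949944 on the minus strand.
CHEK1: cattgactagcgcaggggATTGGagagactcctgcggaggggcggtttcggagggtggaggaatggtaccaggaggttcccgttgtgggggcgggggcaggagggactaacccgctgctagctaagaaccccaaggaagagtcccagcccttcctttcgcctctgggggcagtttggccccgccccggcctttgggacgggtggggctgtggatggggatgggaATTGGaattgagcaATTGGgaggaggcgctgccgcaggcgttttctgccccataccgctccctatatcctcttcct
CHEK2: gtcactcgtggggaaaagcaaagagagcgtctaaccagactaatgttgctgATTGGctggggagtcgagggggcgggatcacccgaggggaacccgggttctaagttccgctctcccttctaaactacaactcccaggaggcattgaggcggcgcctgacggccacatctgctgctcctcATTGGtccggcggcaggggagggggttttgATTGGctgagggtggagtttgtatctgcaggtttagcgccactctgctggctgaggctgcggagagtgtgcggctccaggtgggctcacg
RAD52: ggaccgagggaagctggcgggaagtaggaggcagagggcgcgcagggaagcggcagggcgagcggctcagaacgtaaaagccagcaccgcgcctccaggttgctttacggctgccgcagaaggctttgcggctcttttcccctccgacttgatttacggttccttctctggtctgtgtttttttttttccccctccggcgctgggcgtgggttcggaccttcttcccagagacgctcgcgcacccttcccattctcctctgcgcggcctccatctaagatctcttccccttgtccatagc

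CCAAT occurred 3 times in the printed CHEK1 window and 3 times in the CHEK2 window, and 0 times in either window of RAD52. The other 2 windows of CHEK1, which begin further upstream and overlap the printed one, held 1 CCAAT each. The printed CHEK1 window is thus the one with the most matches, and the likeness to CHEK2 in this count depends on that choice. Whether these boxes bear on the differences was not tested. Over all 35116 windows in the table, 34.6% held at least 1 CCAAT on either strand and 3.26% held at least 3. In the CHEK2 window the first letters of the 3 boxes lay 199, 70 and 40 bases before the start, and in the CHEK1 window 232, 26 and 12 bases before it. GC boxes, spelled GGGCGG and searched on both strands, numbered 3 in the CHEK1 window, 1 in the CHEK2 window and 0 in both RAD52 windows, against 45.0% of all windows with at least 1. The CHR element of cell cycle genes, searched as TTTGAA or TTCGAA, and an E2F element searched as TTTGGCGC, TTTCGCGC, TTTCCCGC or TTTGCCGC (of which the third can overlap a GC box) were found 0 times in all 6 windows. At least 1 CHR match was present in 16.4% of all windows and at least 1 E2F match in 3.31%. These are matches of letters in short windows, and no match says only that these letters are not there.

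CHEK1 had log2 values of 8.12 and 8.03 on the BRPF3 siRNA arrays, against 8.67 and 8.56 on the control arrays (probe set 16733104). Both BRPF3 siRNA arrays lay below both control arrays. Groups that do not overlap, in either direction, were found for 63.2% of all tested genes. The gap between the groups, 0.44, was larger than the distance between the arrays of either group (0.09 for BRPF3 siRNA and 0.11 for control siRNA). The means were 8.07 ± 0.06 after BRPF3 siRNA and 8.61 ± 0.08 after control siRNA (SD, n = 2 each). The log2 difference was -0.54, which puts the BRPF3 siRNA level at 68.6% of the control level. Taking each BRPF3 siRNA array against each control array, the difference ran from -0.64 to -0.44. In RNA of a whole culture, fewer cells that carry a transcript and less of it per cell cannot be told apart.

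CHEK2 had values of 5.78 and 5.84 on the BRPF3 siRNA arrays, against 6.28 and 6.42 on the control arrays, in its brighter probe set (16933502). The groups were again separated, by a gap of 0.44, while the arrays of a group were 0.06 apart for BRPF3 siRNA and 0.14 apart for control siRNA. The means of 5.81 ± 0.04 after BRPF3 siRNA and 6.35 ± 0.10 after control siRNA (SD, n = 2 each) differed by -0.54, or 68.8% of the control level. This is within 0.01 of the log2 difference of CHEK1. The range over the array pairs, -0.64 to -0.44, was also that of CHEK1 to 2 decimals. Both genes were chosen by these differences, so nothing is read from the likeness. Separated arrays with a difference of at least 0.5 in size were found for 870 tested genes.

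The second CHEK2 probe set (17122246) was dim, with 3.61 and 3.49 on the BRPF3 siRNA arrays and 4.09 and 3.57 on the control arrays. Here the groups overlapped, since BRPF3 siRNA replicate 1 lay above control replicate 2. The difference of -0.28 had the sign of the brighter probe set, but the control arrays differed from each other by 0.52. Its mean of 3.69 was under the intensity bound of 4.59, the median of all probe sets, so it entered no test, and 3 of the 4 member probe sets passed that bound. The mean of both CHEK2 probe sets differed by -0.41.

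RAD52 had values of 7.67 and 7.78 on the BRPF3 siRNA arrays, against 7.17 and 7.21 on the control arrays (probe set 16759876). Both BRPF3 siRNA arrays lay above both control arrays, by a gap of 0.46, where the arrays of a group were 0.11 apart for BRPF3 siRNA and 0.04 apart for control siRNA. The means were 7.72 ± 0.08 after BRPF3 siRNA and 7.19 ± 0.03 after control siRNA (SD, n = 2 each). The log2 difference of 0.54 is a 1.45-fold higher level, or 145% of the control level. Over the array pairs it ran from 0.46 to 0.61.

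**Figure D1:**
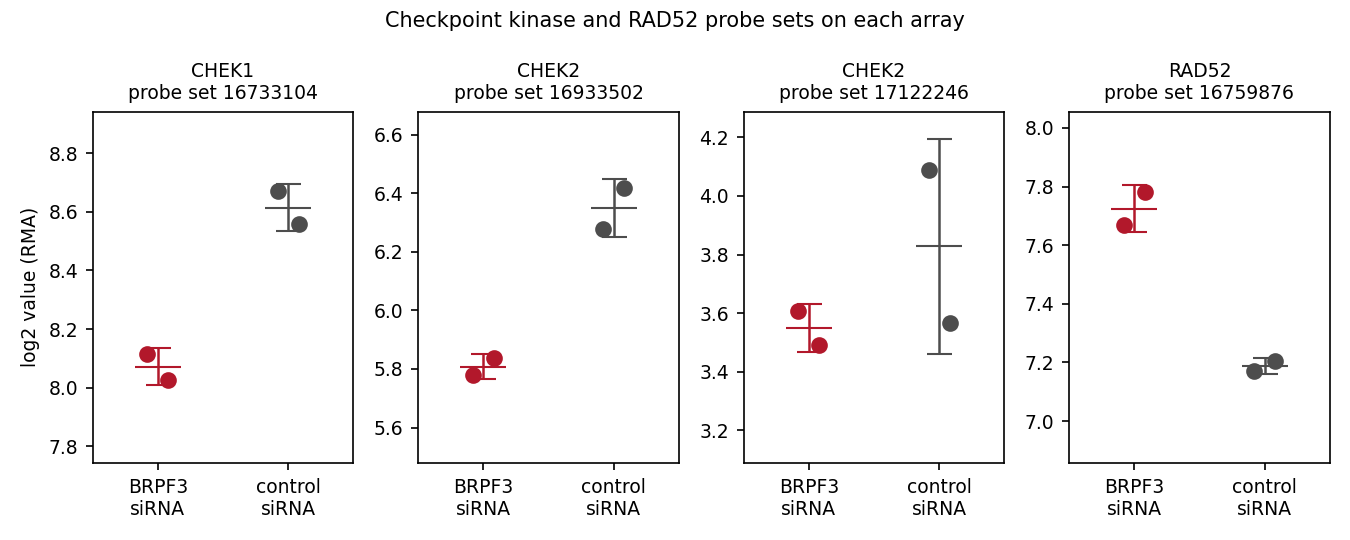
Log2 RMA value of each member probe set (vertical axis, 1.2 log2 units high in each panel) on the 2 BRPF3 siRNA arrays and the 2 control siRNA arrays; points are arrays, long horizontal marks are means and bars are ± 1 SD. CHEK1 and the brighter CHEK2 probe set are lower on both BRPF3 siRNA arrays, RAD52 is higher on both, and the dim CHEK2 probe set overlaps between the groups.

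In sizes the 3 genes were thus alike, at 0.54 on the log2 scale, against a median size of 0.17 over the 10696 genes bright enough to be tested. A difference at or below that of CHEK1 was found for 397 tested genes and at or below that of CHEK2 for 405, while 319 were at or above RAD52, the member included each time. In limma's moderated test with Benjamini-Hochberg adjustment, 15.8% of the tested genes changed at an adjusted p under 0.05, of which 676 genes (6.32%) rose and 1010 (9.44%) fell. Of the changed genes 40.1% rose on the values as deposited, and quantile normalization moved that share to 51.6%. Since the members were picked on this contrast, nothing is read from their own place in it. Quantile normalization moved CHEK1 to -0.49, CHEK2 to -0.54 and RAD52 to 0.58. With single arrays left out, CHEK1 ran from -0.60 to -0.49, CHEK2 from -0.61 to -0.47 and RAD52 from 0.48 to 0.59. The groups are separated for each of these probe sets, so leaving out an array could not have turned a sign.

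**Figure D2:**
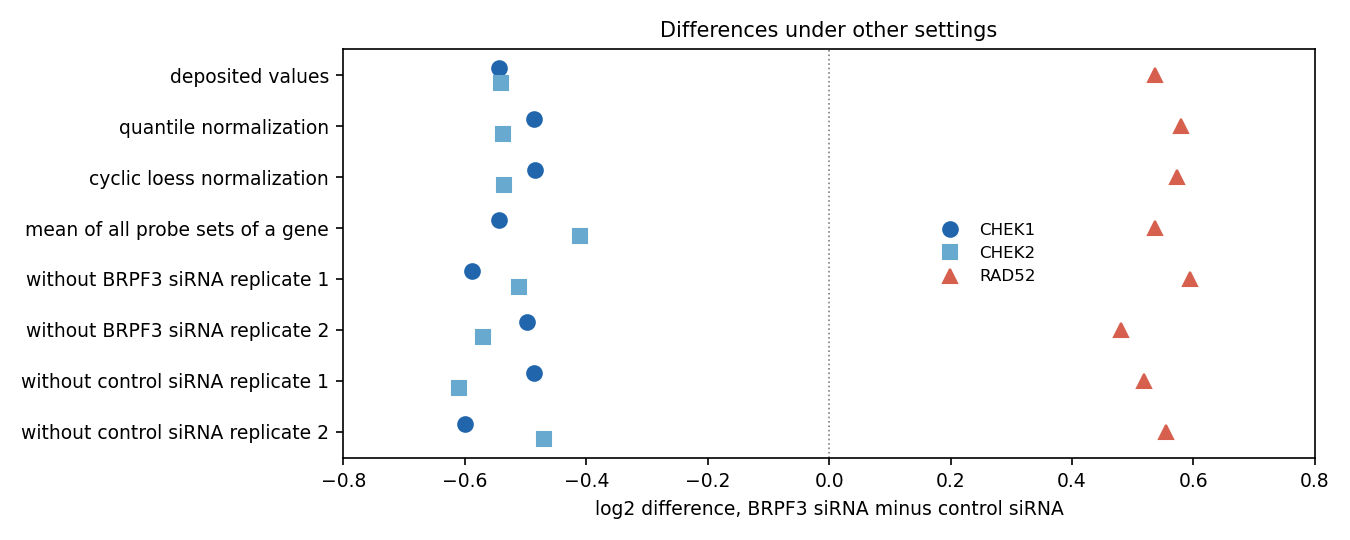
Log2 difference of CHEK1, CHEK2 and RAD52 (BRPF3 siRNA minus control siRNA, horizontal axis) on the deposited values and under 7 other settings (rows). CHEK1 and CHEK2 stay between -0.61 and -0.41 and RAD52 between 0.48 and 0.59, with the smallest CHEK2 value where its dim probe set is averaged in.

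CHEK2 has copies of part of its sequence elsewhere in the genome, and RefSeq lists 6 CHEK2 pseudogenes, 1 of which, CHEK2P2, has a named probe set. CHEK2P2 was looked up after the CHEK2 values were seen. It had 4.37 and 4.15 on the BRPF3 siRNA arrays, against 5.30 and 5.05 on the control arrays, with the groups apart. The log2 difference was -0.91. It is given without a test, since the BRPF3 siRNA mean of 4.26 lay under the intensity bound and the gene passed that bound through the control arrays, whose mean was 5.17. How far transcripts of one locus are read by the probe set of the other was not tested, so the share of CHEK2 itself in either difference is uncertain. RefSeq lists 0 pseudogenes named for CHEK1 and 1 for RAD52, which has no named probe set here.

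HSCB, a cochaperone for iron-sulphur cluster assembly, begins beside CHEK2 and is read in the opposite direction, with its nearest annotated start 212 bases from that of CHEK2, so that the 3 CCAAT boxes shown above lie between both starts. HSCB had 7.10 and 7.11 on the BRPF3 siRNA arrays, against 7.44 and 7.38 on the control arrays. The groups were apart, but the difference of -0.30 ± 0.08 (moderated SE) missed the threshold over all genes (limma, adjusted p = 0.0539). The adjusted p was 0.0324 with an intensity trend in limma's variance prior and 0.0166 with a filter at the 75th percentile, and ran from 0.0542 to 0.240 under the other settings. TTC28, on the other side of CHEK2, differed by 0.08 ± 0.10 (limma, adjusted p = 0.636).

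For CHEK1 the nearest genes with a named probe set were EI24, at -0.04 ± 0.09 (limma, adjusted p = 0.750), and the sperm acrosomal gene ACRV1, whose values of 3.81 and 3.84 on the BRPF3 siRNA arrays and 3.76 and 3.77 on the control arrays were under the bound. RAD52 overlaps ERC1 and has the kinase gene WNK1 on its other side. ERC1 differed by 0.10 ± 0.09 (limma, adjusted p = 0.485) and WNK1 by 0.10 ± 0.08 (limma, adjusted p = 0.421). Of the 6 neighbours, 5 were tested, 0 rose and 0 fell in limma's test, where 15.8% of all tested genes changed, and 1, HSCB, had an unadjusted p under 0.05, where 34.6% of all tested genes did. Whether a member's difference is larger than that of its neighbour was not tested.

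**Figure D3:**
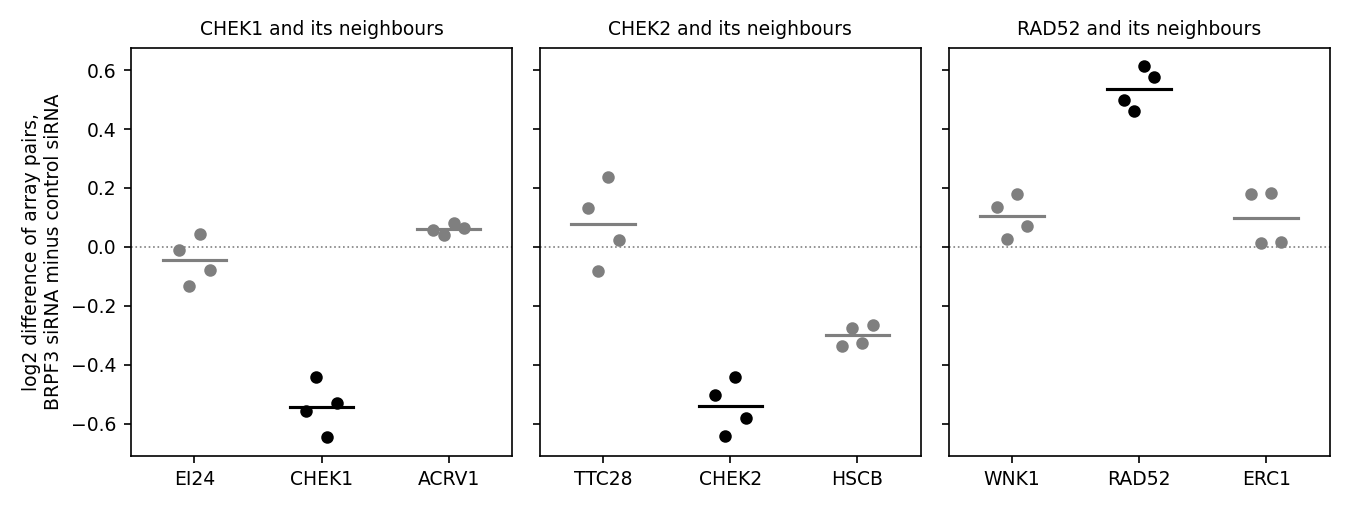
Log2 difference of each BRPF3 siRNA array against each control siRNA array (4 points per gene, line at their mean) for the 3 members and the nearest named gene on either side in RefSeq order. HSCB, beside CHEK2, lies below 0 in every pair at a mean of -0.30, while EI24, TTC28, WNK1, ERC1 and ACRV1 (under the intensity bound) average between -0.04 and 0.10.

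The genes that work with the checkpoint kinases and RAD52 were taken from 6 role lists of 164 genes, of which 95 had a named probe set and 90 were tested. CHEK1, CHEK2 and RAD52 themselves are not in these lists, while they are among all tested genes. As they had been picked for their differences, the list shares leave them out by construction. Over the 6 lists 2 genes rose and 5 fell, or 7.78% of those tested, against 15.8% of all tested genes, with a median log2 difference of -0.10 against -0.03. An unadjusted p under 0.05 in limma was found for 27 of the 90, against 34.6% of all tested genes. Separated arrays were found for 59 of the 90, against 63.2% of all tested genes. The shares of changed genes moved with the settings. With an intensity trend 25.6% of the list genes and 24.7% of all genes changed, with a filter at the 75th percentile 26.5% and 34.1%, and without a filter 0% and 2.75%. On the deposited values PCNA had the largest difference among the 90, at -0.52, while after quantile normalization MCM8 was at 0.58 and PCNA at -0.43.

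Among 17 tested sensors and mediators, which detect damage and bring the kinases to their activators, 1 rose and 0 fell, with a median of -0.07. That is 5.88% changed, against 15.8% of all tested genes. TIMELESS, a fork protection protein, had 9.37 and 9.34 on the BRPF3 siRNA arrays against 8.999 and 9.014 on the control arrays and rose by 0.35 ± 0.08 (limma, adjusted p = 0.0367). Its binding partner TIPIN had 7.68 and 7.89 on the BRPF3 siRNA arrays against 8.15 and 8.14 on the control arrays, a difference of -0.36 ± 0.10 that missed the threshold (limma, adjusted p = 0.0609). The arrays of both genes were separated, in opposite directions, as the arrays of most tested genes were in one direction or the other. NBN, a subunit of the break sensor with MRE11 and RAD50, differed by 0.33 ± 0.10 (limma, adjusted p = 0.0724). ATR itself, the kinase that activates CHEK1, had 7.86 and 7.76 after BRPF3 siRNA and 7.78 and 7.73 after control siRNA, and the groups overlapped (0.05 ± 0.08, limma adjusted p = 0.689). CLSPN, the adaptor that presents CHEK1 to ATR, differed by -0.12 ± 0.08 (limma, adjusted p = 0.343), and TOPBP1, an activator of ATR, by -0.20 ± 0.08 (limma, adjusted p = 0.149). ATM was not analysed here.

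Of 17 tested targets and regulators of the kinases, 0 rose and 1 fell (5.88%, against 15.8% of all tested genes), with a median of -0.08. TLK2, a kinase of histone chaperones in a family that CHEK1 phosphorylates, had 9.94 and 10.04 on the BRPF3 siRNA arrays against 10.33 and 10.33 on the control arrays and fell by 0.34 ± 0.08 (limma, adjusted p = 0.0442). That call was lost after quantile normalization (-0.25, limma adjusted p = 0.0813) and after cyclic loess normalization (-0.25, limma adjusted p = 0.0809). The CHEK1 and CHEK2 substrate CDC25A, which opens entry into S phase, had 9.40 and 9.42 after BRPF3 siRNA and 9.41 and 9.38 after control siRNA (0.02 ± 0.08, limma adjusted p = 0.881). CDC25C, which activates CDK1, differed by 0.15 ± 0.09 (limma, adjusted p = 0.282) and the opposing kinase WEE1 by 0.13 ± 0.12 (limma, adjusted p = 0.473). Next to the threshold came TTK, a mitotic kinase (-0.20 ± 0.08, limma adjusted p = 0.126), and CUL4A, scaffold of a ubiquitin ligase (-0.20 ± 0.08, limma adjusted p = 0.132).

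In homologous recombination and strand annealing, the pathways of RAD52, 1 of 27 tested genes rose and 1 fell, with a median of -0.09. The share changed was 7.41%, against 15.8% of all tested genes. MCM8, a helicase that acts in recombination, had 11.32 and 11.48 on the BRPF3 siRNA arrays against 10.92 and 10.94 on the control arrays and rose by 0.47 ± 0.09 (limma, adjusted p = 0.0266). Its partner MCM9 differed by -0.11 ± 0.10 (limma, adjusted p = 0.448). RECQL, a helicase of the RecQ family, had 9.78 and 9.87 after BRPF3 siRNA against 10.22 and 10.20 after control siRNA and fell by 0.38 ± 0.08 (limma, adjusted p = 0.0340), a call lost after quantile normalization (-0.29, limma adjusted p = 0.0615) and cyclic loess normalization (-0.30, limma adjusted p = 0.0574). SFR1, a recombination factor, came next at 0.32 ± 0.09 (limma, adjusted p = 0.0569), and MSH3, a mismatch repair protein that helps remove flaps after annealing, at -0.25 ± 0.08 (limma, adjusted p = 0.0858). PALB2, a scaffold of recombination proteins at breaks, differed by -0.25 ± 0.08 (limma, adjusted p = 0.0879), and the recombination factors RAD51C by -0.03 ± 0.08 (limma, adjusted p = 0.803) and XRCC3 by 0.18 ± 0.08 (limma, adjusted p = 0.186). BRCA2, RPA1 and RPA2 were not analysed here.

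End joining and crosslink repair, the routes that compete or cooperate with annealing, showed 1 changed gene. Of 11 tested end joining genes 0 rose and 1 fell (9.09%, against 15.8% of all tested genes), with a median of -0.12. XRCC6, the Ku70 subunit that binds broken ends, had 8.95 and 8.98 on the BRPF3 siRNA arrays against 9.53 and 9.36 on the control arrays and fell by 0.48 ± 0.09 (limma, adjusted p = 0.0269). Its partner XRCC5, the Ku80 subunit, differed by -0.26 ± 0.08 (limma, adjusted p = 0.0909) and XRCC4, the partner of the joining ligase, by -0.23 ± 0.08 (limma, adjusted p = 0.107). Of 7 tested Fanconi and fork remodelling genes 0 rose and 0 fell in limma's test, where 15.8% of all tested genes changed, with 2 at an unadjusted p under 0.05, a cut that 34.6% of all tested genes passed: RAD18, a ubiquitin ligase for PCNA (-0.26 ± 0.09, limma adjusted p = 0.0946), and the nuclease FAN1 (-0.21 ± 0.08, limma adjusted p = 0.122). POLQ, LIG4, PRKDC and FANCD2 were not analysed here. Of 23 listed Fanconi and fork remodelling genes 16 had no named probe set, so the counts cover only part of that list.

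Among 12 tested genes of break-induced replication and ALT telomeres 0 rose and 2 fell, or 16.7% against 15.8% of all tested genes, with a median of -0.17. PCNA, the sliding clamp of DNA polymerases, had 9.95 and 9.83 on the BRPF3 siRNA arrays against 10.39 and 10.44 on the control arrays and fell by 0.52 ± 0.08 (limma, adjusted p = 0.0195). PML, which builds the nuclear bodies that gather telomeres in ALT cells, had 6.47 and 6.45 after BRPF3 siRNA against 6.87 and 6.76 after control siRNA and fell by 0.36 ± 0.08 (limma, adjusted p = 0.0408). SP100, another protein of these bodies, differed by -0.27 ± 0.09 (limma, adjusted p = 0.0957), and the telomere end protein POT1 by 0.28 ± 0.10 (limma, adjusted p = 0.105). ATRX, a chromatin remodeller that U2OS cells are known to lack, was under the bound, with 4.31 and 4.46 on the BRPF3 siRNA arrays and 4.25 and 4.36 on the control arrays. TERT, the catalytic subunit of telomerase, had 5.76 and 5.48 on the BRPF3 siRNA arrays and 5.82 and 5.84 on the control arrays (-0.21 ± 0.11, limma adjusted p = 0.240). POLD3 was not analysed here.

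**Figure D4:**
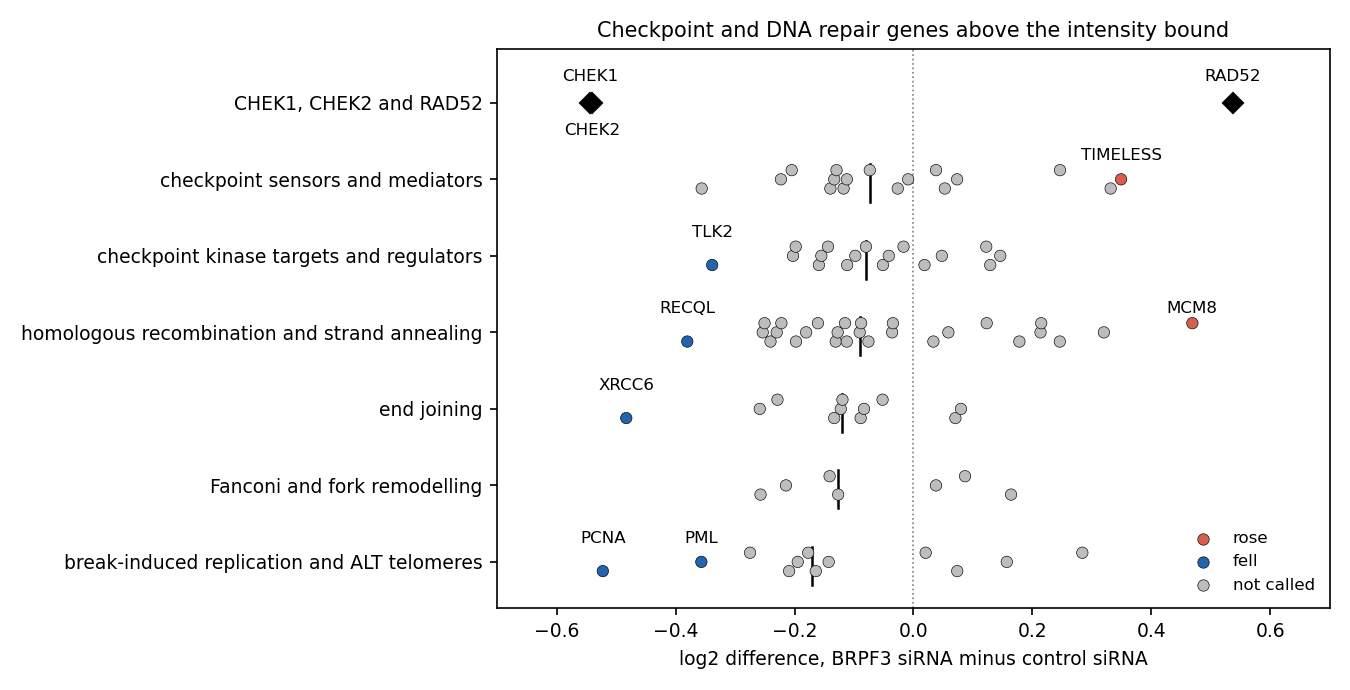
Log2 difference (BRPF3 siRNA minus control siRNA, horizontal axis) of the 3 members and of every tested gene in the 6 role lists (rows, 1 point per gene); red points rose, blue points fell and grey points did not pass limma's adjusted p under 0.05, and short vertical lines are list medians. The 7 named list genes lie between -0.52 and 0.47, and list medians lie between -0.17 and -0.07. A gene in 2 lists is drawn in both.

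The 7 changed list genes were lost as calls without control replicate 1 (adjusted p from 0.104 to 0.205 in limma) and without control replicate 2 (0.0976 to 0.185), and without BRPF3 siRNA replicate 2 (0.0557 to 0.102). Without BRPF3 siRNA replicate 1, MCM8 and PCNA passed (limma, adjusted p = 0.0450 and 0.0433) and the other 5 did not. Over all 11 alternatives the adjusted p of the 7 genes in limma ran from 0.00039 to 0.205. No list gene changed when all 14884 named genes were tested without an intensity filter, where 2.75% of all genes changed. An unadjusted p under 0.05 in limma was then found for 22 of 95 list genes and for 3842 of all 14884.

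The tested genes whose profiles over the 4 arrays were most like those of the members were found by the root mean square distance between profiles, each centred on its own mean. Nearest to CHEK1 were LEPROTL1 (distance 0.010), OIP5, which helps to load the centromeric histone (0.020), and ARHGAP18 (0.020), against 0.28 for the median gene. Their log2 differences were -0.54, -0.57 and -0.53. Nearest to CHEK2 were the import receptor IPO8 (0.011), the oxidase NOX4 (0.015) and the receptor TLR6 (0.016), at differences of -0.53, -0.53 and -0.51. Nearest to RAD52 were the antisense RNA NPPA-AS1 (0.016), the vesicle priming factor UNC13B (0.018) and RASA2, which turns Ras off (0.018), at differences of 0.51, 0.57 and 0.54. With 4 arrays such a likeness is mostly a like difference between the groups. None of the 9 genes is in the role lists, but these hold only 90 of the 10696 tested genes, so nothing is read from that.

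Of the whole series, BRPF3 has no named probe set, so the knockdown was not checked on these arrays, and with no other siRNA against BRPF3 analysed, effects of this siRNA and of BRPF3 loss cannot be told apart. The log2 values of tested genes differed between the arrays of a group with an SD of 0.20 for BRPF3 siRNA and 0.17 for control siRNA, and the number of arrays limits the precision. Of 4 named osteoblast markers, RUNX2, SP7 and SPP1 were at or above the intensity bound and IBSP under it, and their summed linear signal overlapped between the groups (229 to 233 on the BRPF3 siRNA arrays and 210.3 to 237 on the control arrays). Of other cell types, 5 of 6 named epithelial, 1 of 2 leukocyte and 1 of 3 endothelial markers were at or above it. The summed linear signal of the epithelial markers was 1397 to 1465 on the BRPF3 siRNA arrays and 1745 to 1800 on the control arrays. Most of it came from KRT18, with a control mean of 10.41 on the log2 scale, against 7.92 for EPCAM, the next brightest. KRT18 differed by -0.49, EPCAM by 0.27, KRT8 by -0.05, KRT19 by 0.04, KRT14 by -0.18 and KRT5, under the bound, by 0.20. For the leukocyte markers the sum was 55.6 to 61.3 on the BRPF3 siRNA arrays and 83.0 to 100.5 on the control arrays. Most of that sum came from LAPTM5, which differed by -0.88, while CD14, under the bound, differed by 0.11. For the endothelial markers the sum was 76.5 to 76.7 on the BRPF3 siRNA arrays and 84.6 to 85.2 on the control arrays. CLDN5 differed by -0.10 and was not called (limma, adjusted p = 0.438). PECAM1 and VWF, both under the bound, differed by -0.35 and -0.15. RMA values are not 0 for any marker, and the part of these markers in the results was not tested.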

How the data were processed

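Each sample's total RNA was hybridised to 1 Affymetrix whole-transcript array after WT PLUS labelling, per the labels' protocols. The authors deposited log2 values per probe set, made with RMA per the submitters' processing notes. For RMA, no version, settings or genome build is given in the sources used here. Values were used as deposited.

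Probe sets were named from the platform annotation (16098 with 1 gene symbol, 0 with several, 37519 with none). All 16098 gene IDs matched RefSeq and 0 symbols changed. The probe set with the highest mean stood for a gene, and genes whose mean lay below 4.59, the median over probe sets, were not tested. Groups came from the sample titles. The comparison used limma 3.58.1 and R 4.3.3 (two-sided, 2 residual and 3.81 prior degrees of freedom), with Benjamini-Hochberg adjustment over 10696 genes. Differences are BRPF3 siRNA minus control siRNA, with limma's moderated SE. The procedure was tested on simulated data.

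The members, the lists and the tests were chosen with earlier results of these data known. Named were the members, every changed list gene, the 2 next genes of each list by adjusted p, 22 genes fixed by name (11 of them without a named probe set), the nearest named genes and the 3 most alike profiles. MCM9 and CHEK2P2 were named after their values were seen. Alternatives were quantile and cyclic loess normalization, a replicate block, an intensity trend, no filter, a 75th percentile filter, the mean of probe sets and leaving out each array.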

Additional observations from a re-analysis of the deposited data

How the results depend on the processing

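The number of changed genes, 1686, was 2645 with an intensity trend and 409 without an intensity filter, where more and dimmer genes are tested. Leaving out single arrays gave 0 to 791 changed genes. The 0 came from leaving out control replicate 1 or 2 (limma; 2446 and 2477 genes had an unadjusted p below 0.05), and limma then takes the spread of the lone array's group from the other group. Under quantile normalization the changed genes numbered 1 for recombination, 0 for kinase targets and regulators, and 2 for sensors and mediators. Under cyclic loess they numbered 0 for kinase targets and 3 for sensors. With an intensity trend they numbered 6 for sensors, 4 for kinase targets, 7 for recombination, 2 for end joining and 2 for Fanconi genes. With a filter at the 75th percentile they numbered 5 for sensors, 8 for recombination, 3 for end joining, 1 for Fanconi genes and 4 for break-induced replication. Without a filter each list had 0, where 2.75% of all genes changed. With the trend 25.6% of the list genes changed, against 24.7% of all genes, and with the 75th percentile filter 26.5% against 34.1%. The shares were 6.67% against 13.9% after quantile normalization and 8.89% against 14.0% after cyclic loess. With an array left out, the counts ran from 0 to 0 for sensors, kinase targets and end joining, and from 0 to 1 for recombination and for break-induced replication. The causes were not tested beyond what each setting changes by construction. The CHEK2 difference was -0.41 with the mean of its probe sets, where the dim probe set enters. The differences of CHEK1, CHEK2 and RAD52 kept their sign under the 7 settings run for them. Leaving out an array could not have turned a sign, since the groups are separated. Averaging probe sets could not change CHEK1 or RAD52, which have 1 probe set each. With the replicate number as a block 1604 genes changed, and among the 7 changed list genes only TLK2 lost its call (limma, adjusted p = 0.0549), leaving 0 for kinase targets. Deviations of same-numbered arrays correlated at 0.14 over genes. With 2 pairs the numbers are not shown to pair the samples. The number of arrays and the dimness of the second CHEK2 probe set limit what can be seen.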
